A study of Arabidopsis thaliana with 4 samples.

Results

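Leaf RNA of Arabidopsis thaliana was set against the RNA of roots, flowers and siliques to find which loci stood above, or below, every other organ. The value compared was log2(FPKM + 1), with FPKM as the authors deposited it, that is, fragment number divided by transcript length and by the size of the library. A locus was leaf-high when its leaf value exceeded the highest of the 3 other organs by at least 1 (2-fold), and leaf-low when it lay at least 1 under the lowest of them; the distance is called its margin below. Of 34288 loci in the table, 34071 had a usable estimate in all 4 organs and 217 did not. Among the usable loci, 642 were leaf-high and 788 were leaf-low.

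All material was Col-0, unmodified as far as the labels say, grown in long days at 22 °C. Roots and leaves were taken at 2 weeks from seedlings on MS plates. The growth protocol speaks of aerial material, so the leaf library may also hold young stems and the shoot apex. Flowers and siliques were taken at 5 weeks from soil, so organ, age and medium cannot be told apart in the comparison of leaves with those 2 organs. Each organ was 1 TruSeq library sequenced on a HiSeq 2000, so no difference below has a replicate check, a standard deviation or a p-value. The labels give no hour of harvest.

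A leaf is the main site of photosynthesis, in which antenna proteins pass light energy to the photosystems and the Calvin cycle fixes carbon dioxide. Its epidermis carries stomata, hairs and a waxy cuticle, and in crucifers it stores glucosinolates that myrosinases split after wounding. Young leaves also repress flowering through miR156 and through repressors of the AP2, RAV and MADS families.

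The 642 leaf-high loci were 1.88% of the usable loci and the 788 leaf-low loci were 2.31%. Over the 23477 loci of at least 1 FPKM in some organ the shares were 2.73% and 3.36%. At 4-fold the counts were 164 (0.481% of usable loci, 0.699% of those at 1 FPKM) and 86 (0.252% and 0.366%). Leaf-high loci had a median of 36.1 FPKM in leaves against 1.97 in roots, 5.51 in flowers and 5.19 in siliques. Leaf-low loci had a median of 3.09 FPKM in leaves against 16.6, 17.0 and 17.2 in the others, and 210 of them were under 1 FPKM in leaves. By the same rule roots held 2776 high and 2014 low loci, flowers 1888 and 164, and siliques 1319 and 265. On the deposited scale leaves thus had the fewest high loci of the 4 organs. Leaf-high loci rose to 1208 and 980 after the 2 rescalings described below. No such count is given here for the other organs, so the ranking holds for the deposited scale only. Siliques were the next organ for 282 leaf-high loci, flowers for 220 and roots for 140. The other organs were all under 1 FPKM at 103 leaf-high loci.

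These counts moved with the scaling of the libraries. Over loci of at least 1 FPKM in some organ, the median difference of leaves from the mean of the other organs was -0.42 on the log2 scale, and leaves held the lowest value at 45.8% of them. Rescaling by the median of ratios shifted that median by 0.33 and upper-quartile rescaling by 0.20. Leaf-high loci were 44.9% of all calls as deposited, 75.8% after the first rescaling and 65.9% after the second. Leaving 1 organ out of the comparison gave 1227 leaf-high and 2198 leaf-low loci without roots, 930 and 1247 without flowers, and 1032 and 1428 without siliques.

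**Figure D1:**
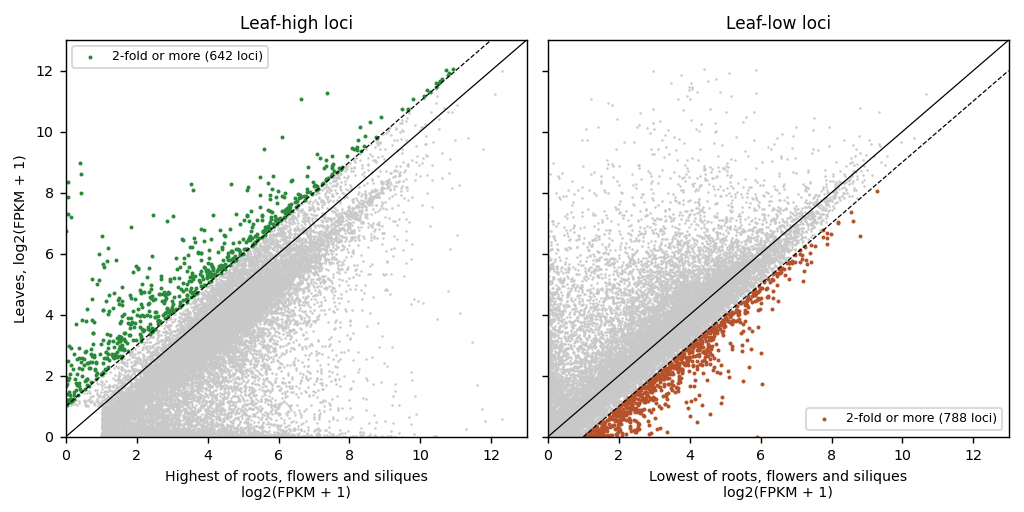
Leaf level against the highest (left) and the lowest (right) of roots, flowers and siliques, both axes in log2(FPKM + 1), for 23477 loci of at least 1 FPKM in some organ. The solid line marks equal levels and the dashed line a 2-fold difference; the 642 leaf-high loci lie above the dashed line on the left and the 788 leaf-low loci below it on the right.

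Markers of green tissue and of other organs were read against the leaf label. Leaves held the highest value at 32 of 33 compared photosystem and antenna genes. The 16 root markers summed to 8.50 FPKM in leaves and 924 in roots, with the root cap genes SMB and BRN1 at 0.0229 and 0.0428 in leaves. The 15 floral and pollen markers summed to 6.48 FPKM in leaves and 3070.03 in flowers, 4 of them being at 0 in leaves, and SEP3 alone gave 4.89 of the leaf sum. The 12 seed markers summed to 1.97 FPKM in leaves and 758 in siliques. Of the shoot meristem genes, WUS stood at 0.00882 FPKM and CLV3 at 0.0687 in leaves, and the boundary and meristem genes STM and KNAT1 at 2.31 and 4.07. In these bulk libraries fewer cells of a type and less RNA per cell cannot be told apart.

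Among the 12 protein-coding loci with the largest leaf-high margins were genes of defensin-like, thionin and lipid-transfer families. The class of loci with a defensin or thionin product, chosen after values were seen, held calls of both kinds. Of its 347 usable loci, 12 were leaf-high (3.46%, beside 1.88% of all usable loci) and 10 leaf-low (2.88%, beside 2.31%). The leaf-low share is close to that of all usable loci. Over class members of at least 1 FPKM, the median difference from the other organs' mean was -0.64 (log2), beside -0.42 over all such loci. The defensin-like gene AT3G05730 (chr3:1695207-1696708, TAIR10 coordinates of the deposited table) stood at 496 FPKM in leaves, 0.110 in roots, 0.219 in flowers and 0.307 in siliques, a margin of 8.57. Its neighbour AT3G05727, annotated as a pollen-coat-like SLR1-binding protein, stood at 393 FPKM in leaves, 0.0365 in roots, 0.0748 in flowers and 0.331 in siliques (margin 8.21). Both were abundant in leaves and under 1 FPKM in every other organ. The thionin AT1G66100, of a family of small antimicrobial peptides, stood at 251 FPKM in leaves, 0.332 in roots, 0.272 in flowers and 0.162 in siliques. The Ole e 1-like gene AT3G16670 stood at 157 FPKM in leaves, 0.0340 in roots, 0.00865 in flowers and 0 in siliques. The leaf-high row of the defensin-like gene AT1G13609 had 62.4, 0.909, 0 and 0.0289 FPKM in leaves, roots, flowers and siliques. A second, overlapping row of AT1G13609 was not leaf-high, at 5.55 on the log2(FPKM + 1) scale in leaves and 5.86 in the highest other organ, so the leaf pattern of this gene is uncertain. AT2G30766, a protein without annotation, had 71.1, 0.545, 1.06 and 1.29 FPKM in the same order. The margins of these last 4 genes ran from 4.98 to 7.57.

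The only transcription factor among the 12 protein-coding loci with the largest margins was HBI1 (AT2G18300), a bHLH factor known to promote cell elongation. It stood at 116 FPKM in leaves, 1.58 in roots, 1.01 in flowers and 2.58 in siliques, and its margin was 5.03. The authors' interval for HBI1 ran from 33.8 to 198 FPKM in leaves, above the upper ends of the other organs. The level of confidence of these intervals is not given in the sources used here. Intervals were separate in this way for 11 leaf-high loci (0.0323%) and 3 leaf-low loci (0.00881%), of which 11 and 2 (0.00587%) also passed 4-fold. After HBI1 came AT5G44580, a short protein without annotation, at 154 FPKM in leaves, 3.95 in roots, 3.28 in flowers and 4.55 in siliques. The receptor-like protein RLP19 had 33.9 FPKM in leaves, 0.897 in roots, 0.236 in flowers and 0.695 in siliques. The cysteine-rich receptor kinase CRK21 had 30.8 FPKM in leaves, 0.0339 in roots, 0.854 in flowers and 0.444 in siliques. CRK21 shares its interval of the table with 10 other rows, so its reads may not be separable from theirs. Among them were CRK22 at 25.2 FPKM in leaves and CRK19 at 21.6 in leaves and 47.4 in roots. A locus that joins the histone gene HTA4 with AT4G13572 (margin 4.62, 53.7 FPKM in leaves) and the adjacent AT4G13575 (4.42) share 1 interval of the table, so their reads may not be separable. The 5 other leaf-high loci with separate intervals were GRP-3, CYP79F1, RLM3, TBL10 and the locus of MIR850 and MIR863.

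**Figure D2:**
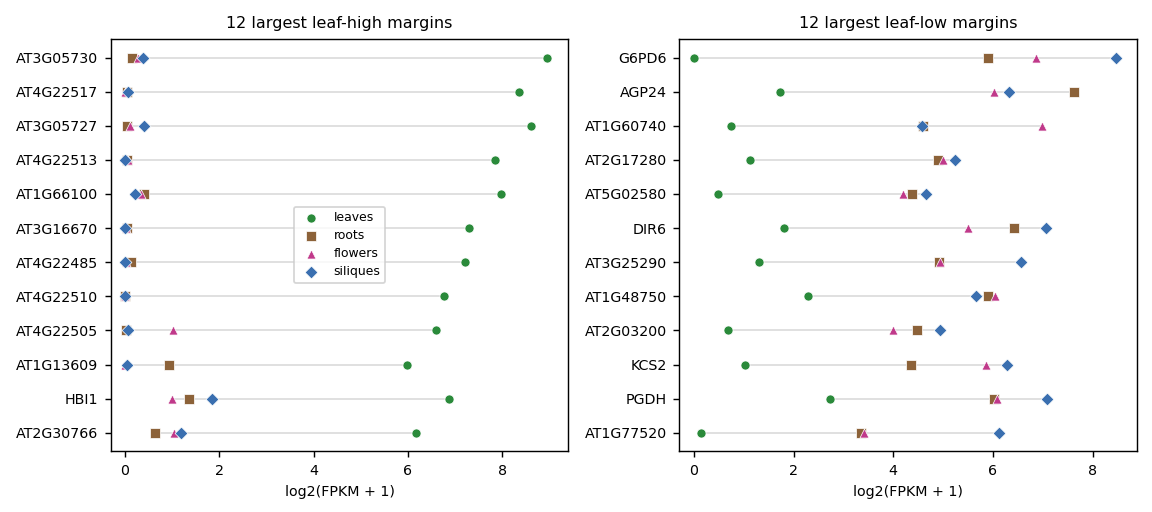
Levels in log2(FPKM + 1) of the 12 protein-coding loci with the largest leaf-high margins (left) and the 12 with the largest leaf-low margins (right), 1 point per organ. On the left the leaf point lies between 5.99 and 8.96 and the other organs below 1.85; on the right the leaf point lies at or below 2.74.

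Some leaf-high genes lay in runs. Of 568 leaf-high genes placed on the chromosomes, 146 (25.7%) had another leaf-high gene within 3 genes, beside 11.3% of the 21288 genes of at least 1 FPKM. For leaf-low genes the shares were 22.5% and 15.6%. The runs described here were picked after their values were seen. The longest held 8 leaf-high genes on chromosome 4, AT4G22470 to AT4G22520 (chr4:11840134-11858970), of which all but AT4G22510 are annotated as lipid-transfer or protease-inhibitor family proteins. Their leaf levels ran from 8.99 to 327 FPKM. AT4G22517 had 327 FPKM in leaves, 0.0371 in roots, 0 in flowers and 0.0420 in siliques. AT4G22485 had 146 FPKM in leaves, 0.0993 in roots, 0.00808 in flowers and 0.00564 in siliques. AT4G22490 was the member with the most flower signal, at 133 FPKM in leaves, 0.0720 in roots, 6.25 in flowers and 0.835 in siliques. Beside the run, AT4G22460 of the same family went the other way with 0.113 FPKM in leaves, 24.5 in roots, 0.0922 in flowers and 0.0499 in siliques. AT4G22485 and AT4G22505 code for 656 and 530 residues, more than the 115 of AT4G22513 and AT4G22517. RefSeq annotates genes on the opposite strand over AT4G22470, AT4G22485 and AT4G22505. AT4G22510, AT4G22513 and AT4G22517 share 1 interval of the table and lie on both strands, and a kit of this type does not keep strand, so their single levels are uncertain. The longest stretch of identical bases between AT4G22513 and AT4G22517 was 68.

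The upstream sequences of 3 members are shown because they carry the letters TATAAA at the same distance, 32 bases, from the annotated start. Of 4 other members, AT4G22485 and AT4G22520 hold the letters 88 and 93 bases before the start, and the windows of AT4G22490 and AT4G22510 do not hold them. Each line holds the 100 bases before the start in RefSeq's TAIR10.1 assembly, 5′ to 3′ on the gene's strand, with TATAAA in capitals. AT4G22505 is on the minus strand (chr4:11853019-11853118), and AT4G22513 (chr4:11854709-11854808) and AT4G22517 (chr4:11856643-11856742) are on the plus strand.
AT4G22505: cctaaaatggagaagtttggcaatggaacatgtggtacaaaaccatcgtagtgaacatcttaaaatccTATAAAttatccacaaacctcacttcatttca
AT4G22513: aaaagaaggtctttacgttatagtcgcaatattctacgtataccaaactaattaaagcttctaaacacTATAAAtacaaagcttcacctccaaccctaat
AT4G22517: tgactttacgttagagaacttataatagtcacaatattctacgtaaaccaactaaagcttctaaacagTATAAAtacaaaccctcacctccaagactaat
TATAAA on the gene's own strand was found in 36.5% of leaf-high windows of 300 bases, 44.3% of the 4-fold leaf-high windows and 37.8% of all windows of loci at 1 FPKM or more. A match is only a match of letters.

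A second run held 5 genes of the thioredoxin superfamily annotated next to each other, AT4G15660 to AT4G15700 (chr4:8925571-8938124). Their leaf levels ran from 6.46 to 20.8 FPKM. AT4G15690 had 20.6 FPKM in leaves, 0.625 in roots, 1.16 in flowers and 1.19 in siliques. AT4G15700 had 20.8 FPKM in leaves, 0.457 in roots, 1.88 in flowers and 2.01 in siliques. The flanking genes AT4G15650 and AT4G15710 were highest in flowers, at 1.55 and 4.19 FPKM. Identical stretches between the 5 genes reached 38 to 71 bases, so part of their reads may have been shared. On chromosome 2, 3 glycine-rich genes were leaf-high among near neighbours with the opposite pattern. GRP3S had 2146 FPKM in leaves, 97.6 in roots, 21.9 in flowers and 1.32 in siliques. GRP-3 had 903 FPKM in leaves, 67.3 in roots, 38.9 in flowers and 41.2 in siliques. AT2G05540 had 313 FPKM in leaves, 4.61 in roots, 10.6 in flowers and 10.3 in siliques. Between them lay GRP9 with 15.5 FPKM in leaves and 2227 in roots, and AT2G05510 with 1.53 and 922.

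**Figure D3:**
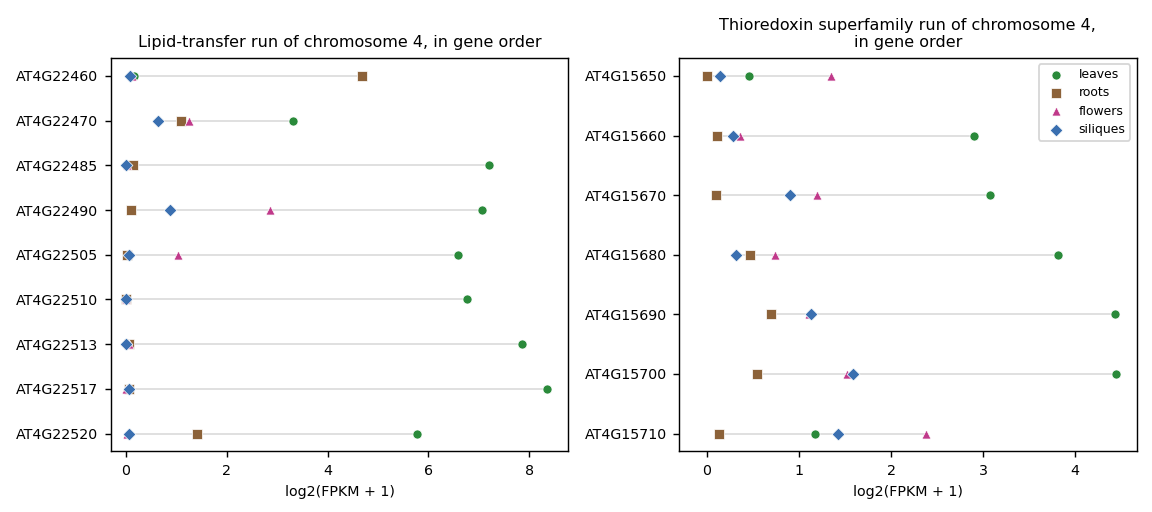
Levels in log2(FPKM + 1) along the lipid-transfer run (left) and the thioredoxin superfamily run (right) of chromosome 4 with the flanking genes, in gene order from top to bottom, 1 point per organ. The leaf point is the rightmost in all 8 genes of the first run and all 5 of the second, and is not in the flanking genes shown.

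Photosystem and antenna genes were highest in leaves with 1 exception, about 2-fold above siliques where they were called and further above roots. Of 33 compared photosystem and antenna genes, 16 were leaf-high and 0 leaf-low, with a median difference of 3.35 (log2) from the mean of the other organs, beside -0.42 over all loci of at least 1 FPKM. Siliques were the next organ for each of the 16, and the margins ran from 1.01 to 1.31. PSBR, a subunit of photosystem II, had 4193 FPKM in leaves, 57.7 in roots, 1109 in flowers and 1685 in siliques. The minor antenna gene LHCB4.2 had 2136 FPKM in leaves, 11.8 in roots, 425 in flowers and 887 in siliques. LHCB6 had 2639.5 FPKM in leaves, 14.7 in roots, 581 in flowers and 1160.1 in siliques. The photosystem I subunit PSAO had the highest usable leaf value of all loci, 4266 FPKM, with 1956 in siliques. After the rescalings 28 and 27 of the 33 were leaf-high. LHCB4.3 was the exception to leaves being highest, with 2.58 FPKM in leaves, 1.57 in roots, 76.2 in flowers and 97.7 in siliques.

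The leaf estimates of 11 of the 45 listed photosystem and antenna genes were unusable. The 5 LHCB1 genes (CAB1, CAB2, CAB3, LHB1B1 and LHB1B2), LHCB3, LHCB5, LHCA1, LHCA3, LHCA4 and PSBO1 carried the status for too much data and are listed at 0, as are the Rubisco small subunit gene RBCS1A and the Rubisco activase gene RCA. In flowers CAB2 stood at 1308 FPKM and CAB1 at 2292. PHOT2, AN3 and AOP2 had other unusable statuses in leaves. The antenna counts leave these genes out.

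Genes of chlorophyll synthesis and their regulators were highest in leaves without exception. Of 18 compared, 9 were leaf-high and 0 leaf-low, and leaves held the highest value in all 18. GLK1 and GLK2 are transcription factors that activate antenna and chlorophyll genes. GLK1 had 108 FPKM in leaves, 0.550 in roots, 19.4 in flowers and 13.3 in siliques (margin 2.42). GLK2 had 152 FPKM in leaves, 5.88 in roots, 16.0 in flowers and 33.6 in siliques (2.14). PORA, a light-dependent protochlorophyllide reductase, had 51.0 FPKM in leaves, 0.101 in roots, 3.46 in flowers and 9.03 in siliques. CAO, which makes chlorophyll b, had 249 FPKM in leaves, 5.42 in roots, 65.5 in flowers and 93.0 in siliques. The other 5 leaf-high genes, CRD1, PORB, CHLM, CHLD and CHLI1, had margins from 1.02 to 1.25.

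Carbon fixation genes were also high in siliques. Of 19 compared genes only the carbonic anhydrase gene CA2 was leaf-high, with 852 FPKM in leaves, 1.16 in roots, 109 in flowers and 301 in siliques. RBCS3B, a Rubisco small subunit, had 4099 FPKM in leaves, 6.72 in roots, 2427 in flowers and 5068 in siliques, so siliques lay above leaves. Of 20 photorespiration genes, 4 were leaf-high. The glutamate:glyoxylate aminotransferase gene GGT1 had 1273 FPKM in leaves, 44.1 in roots, 326 in flowers and 379 in siliques. The ferredoxin-dependent glutamate synthase gene GLU1 had 369 FPKM in leaves, 1.79 in roots, 98.4 in flowers and 111 in siliques. The peroxisomal aminotransferase gene AGT had 929 FPKM in leaves, 119.9 in roots, 302 in flowers and 347 in siliques. In these and in the hydroxypyruvate reductase gene HPR, with 385 FPKM in leaves and 181 in siliques, siliques came second. After rescaling 9 and 8 were leaf-high. Electron carriers, NDH and ATP synthase gave 0 of 21 (6 and 2 after rescaling), led by FNR2 at 801, 4.38, 196 and 462 FPKM in leaves, roots, flowers and siliques and by NDHL at 205, 0.625, 58.0 and 105 FPKM. Plastid sigma factors and division genes gave 0 of 15 (4 and 4 after rescaling), with SIG4 at 27.7, 0.200, 11.4 and 17.2 FPKM and SIG1 at 88.4, 10.3, 38.1 and 45.4 FPKM. In starch and sucrose metabolism 1 of 27 was leaf-high (3.70%), the ADP-glucose pyrophosphorylase gene APL1. APL1 had 226 FPKM in leaves, 6.57 in roots, 60.4 in flowers and 87.4 in siliques. Before rescaling, all these leaf-high counts except that of photorespiration are close to the 2.73% of all loci of at least 1 FPKM. Median differences (log2) from the mean of the other organs were 2.81 for carbon fixation and 2.41 for electron carriers. They were 0.87 for sigma factors and division and 0.85 for starch and sucrose, beside -0.42 over all such loci. None of the 82 usable chloroplast genome loci was leaf-high, but only 42 of them reached 1 FPKM in some organ. For that number of loci, 0 is close to the 2.73% of all loci of at least 1 FPKM.

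Among light signalling genes, 4 PIF factors and the blue-light receptors PHOT1 and CRY1 were leaf-high, and none of the 5 phytochrome genes was. Of 17 compared genes, 6 were leaf-high. PIF4, a bHLH factor that promotes growth and is degraded after phytochrome activation, had 90.9 FPKM in leaves, 1.48 in roots, 6.35 in flowers and 11.3 in siliques (margin 2.90). PIF7 had 26.1 FPKM in leaves, 0.282 in roots, 1.79 in flowers and 3.59 in siliques (2.56). PIL6, also known as PIF5, had 112 FPKM in leaves, 1.66 in roots, 18.2 in flowers and 23.7 in siliques (2.19). In each of the 3 siliques came second and roots lowest. The phototropin gene PHOT1 had 157 FPKM in leaves, 18.5 in roots, 27.0 in flowers and 15.1 in siliques. The other two were the blue-light receptor gene CRY1 (1.20) and PIL5, also known as PIF1 (1.14). PIF3 stood at 11.7, 1.97, 7.95 and 3.29 FPKM in leaves, roots, flowers and siliques and CRY2 at 89.8 in leaves and 70.7 in roots, both short of 2-fold. PHYB stood at 55.6, 32.0, 30.4 and 18.0 FPKM, short of 2-fold over roots, and PHYC at 13.5, 13.4, 15.4 and 13.2 FPKM. ELIP1, an early light-induced protein, was leaf-low with 1.17 FPKM in leaves, 3.73 in roots, 72.9 in flowers and 40.6 in siliques, a call lost under both rescalings and with a pseudocount of 5 FPKM.

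**Figure D4:**
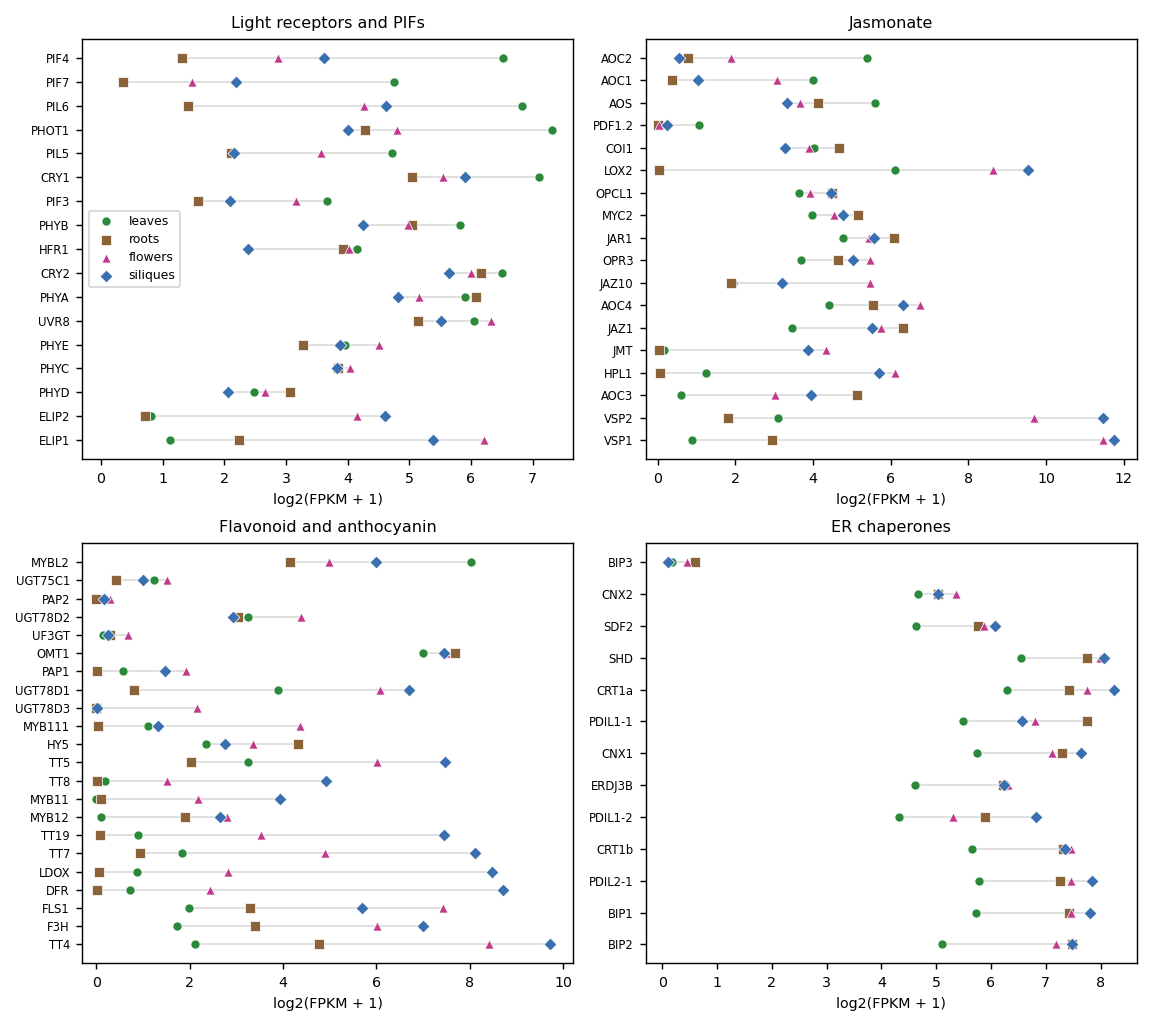
Levels in log2(FPKM + 1), 1 point per organ, of all compared members of 4 gene lists, ordered by the difference of leaves from the mean of the other organs. Leaf points lie rightmost for PIF4, PIF7 and PIL6 at the top of the light list, and leftmost for 12 of 13 ER chaperones.

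Floral repressors and some precursor loci of the miR156 family were leaf-high, and 5 SPL genes with a miR156 site were highest in flowers. Of 24 flowering-time genes, 4 were leaf-high, all of them known repressors of flowering. The AP2-type gene SNZ had 17.3 FPKM in leaves, 0.128 in roots, 0.514 in flowers and 0.0120 in siliques (margin 3.60). TEM2, a RAV-family gene, had 134 FPKM in leaves, 34.9 in roots, 0.306 in flowers and 0.109 in siliques. In SNZ and TEM2 no flower or silique value reached 1 FPKM. The relative TEM1 had 65.6 FPKM in leaves, 29.0 in roots, 4.01 in flowers and 3.47 in siliques. The MADS-box gene SVP had 69.7 FPKM in leaves, 27.8 in roots, 8.43 in flowers and 2.09 in siliques. In each of TEM1, TEM2 and SVP roots came second and flowers and siliques lay far lower. FT, which encodes the mobile flowering signal, had 1.01, 0.00600, 6.80 and 154 FPKM in leaves, roots, flowers and siliques.

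Of 164 usable miRNA loci, 44 reached 1 FPKM in some organ, 5 were leaf-high and 0 leaf-low. MIR157c had 12.3 FPKM in leaves, 0.0466 in roots, 1.89 in flowers and 0.354 in siliques (margin 2.20). MIR156a had 4.29 FPKM in leaves, 0.310 in roots, 0.541 in flowers and 0.311 in siliques (1.78). MIR156c had 8.26 FPKM in leaves, 2.10 in roots, 0.463 in flowers and 0.424 in siliques (1.58). MIR169m (margin 1.29) and MIR841a (1.07) were the others. MIR157a was expressed in leaves at 10.4 FPKM but stood higher in roots, at 19.2. These are values of precursor loci, not of mature miRNAs, and each of the 5 leaf-high ones overlaps at least 1 other row of the table. MIR156a and MIR156c each have a second row in the same interval, at 0.156 and 0.0758 FPKM in leaves. The mature sequences (RefSeq, TAIR10.1) are given with the seed, bases 2 to 8, in capitals. The miR157 form has 1 extra base at its 5′ end, so its seed is shifted against that of miR156.
miR156 of MIR156a and MIR156c: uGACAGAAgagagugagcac
miR157 of MIR157a and MIR157c: uUGACAGAagauagagagcac

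SPL transcription factors promote the adult phase and flowering and carry a miR156 site. The best ungapped match to miR156 in each gene is given below as RNA, 5′ to 3′, with bases that are no Watson-Crick match to miR156 in capitals (RefSeq, TAIR10.1). The sites lie in the 3′ UTR of SPL3 (chr2:14305878-14305897, plus strand), SPL4 (chr1:19807090-19807109, plus strand) and SPL5 (chr3:5140598-5140617, minus strand), and in a coding exon of SPL9 (chr2:17589066-17589085, plus strand) and SPL15 (chr3:21444834-21444853, minus strand).
SPL3 site: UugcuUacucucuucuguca
SPL4 site: CugcucUcucucuucuguca
SPL5 site: CCgcucUcucucuucuguca
SPL9 site: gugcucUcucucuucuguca
SPL15 site: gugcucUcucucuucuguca
SPL9 had 6.62 FPKM in leaves, 0.301 in roots, 47.7 in flowers and 7.03 in siliques. SPL3 had 10.8 FPKM in leaves, 0.393 in roots, 67.7 in flowers and 40.6 in siliques. SPL4, SPL5 and SPL15 stood at 7.71, 1.15 and 1.29 FPKM in leaves against 61.5, 35.3 and 12.05 in flowers. None of the 5 was leaf-low, because roots were lower still.

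The leaf-high glucosinolate genes were chiefly those of the aliphatic branch. Of 36 compared glucosinolate genes, 8 were leaf-high and 0 leaf-low. CYP79F1, which starts the aliphatic core pathway from chain-elongated methionine, had 59.2 FPKM in leaves, 1.93 in roots, 1.29 in flowers and 4.40 in siliques (margin 3.48). Its paralogue CYP79F2, with which it shares an identical stretch of 100 bases, had 6.57 FPKM in leaves, 19.8 in roots, 0.558 in flowers and 1.13 in siliques, so CYP79F2 was highest in roots and reads may have been split between them. The side-chain oxidase gene FMOGS-OX1 had 12.5 FPKM in leaves, 0.724 in roots, 0.646 in flowers and 0.591 in siliques, and its relative FMOGS-OX3 13.8, 1.05, 2.57 and 1.30 FPKM in leaves, roots, flowers and siliques. MYB29, MYB76 and MYB28, regulators of the aliphatic branch, had margins of 2.81, 1.93 and 1.22, MYB29 standing at 15.1 FPKM in leaves, 0.510 in roots, 0.876 in flowers and 1.29 in siliques. ESM1, which modifies the products of myrosinase, had 335 FPKM in leaves, 0.611 in roots, 80.1 in flowers and 27.5 in siliques. The last was CYP83A1 (margin 1.48). The indole branch genes CYP79B2, CYP79B3 and CYP83B1 stood at 8.43, 18.7 and 39.4 FPKM in leaves and 54.1, 72.6 and 135 in roots. Without roots 18 of the 36 passed 2-fold.

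A minority of intracellular immune receptors were leaf-high. Of 91 usable loci annotated as TIR-NBS or TIR-NBS-LRR disease resistance proteins, 13 were leaf-high (14.3%, beside 1.88% of all usable loci) and 0 leaf-low. Only 1 of the 13 passed 4-fold. Over class members of at least 1 FPKM, the median difference from the mean of the other organs was -0.03 (log2), beside -0.42 over all such loci. RLM3 had 109 FPKM in leaves, 0.430 in roots, 10.7 in flowers and 14.0 in siliques (margin 2.88). The other 12 included RPP5 with 80.4 FPKM in leaves, 18.3 in roots, 14.3 in flowers and 21.2 in siliques and 2 rows of RPP4, which shares an identical stretch of 125 bases with RPP5, so their reads may have been shared. WRR4 had 9.39 FPKM in leaves, 0.101 in roots, 3.54 in flowers and 4.13 in siliques. Of 150 receptor kinase loci 9 were leaf-high and 1 leaf-low. In the salicylate list, 1 of 30 genes of salicylate and immune response was leaf-high and 1 leaf-low (3.33% each). These shares are close to the 2.73% and 3.36% of all loci of at least 1 FPKM. The leaf-high gene was RLM3 again. The leaf-low one was the salicylate exporter gene EDS5 with 0.781 FPKM in leaves, 7.57 in roots, 3.96 in flowers and 3.03 in siliques. PR1 was at 0.139 FPKM and FMO1 at 0.0650 in leaves.

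Of cytochrome P450 genes, 15 of 241 were leaf-high (6.22%) and 4 leaf-low. They included CPD, an enzyme of brassinosteroid synthesis, with 202 FPKM in leaves, 26.3 in roots, 61.6 in flowers and 29.1 in siliques. CYP71B4 had 35.6 FPKM in leaves, 0.587 in roots, 1.76 in flowers and 7.33 in siliques. CYP71A22 had 17.6 FPKM in leaves, 0.00631 in roots, 1.34 in flowers and 1.49 in siliques. Of 139 lipid-transfer loci 13 were leaf-high (9.35%, beside 1.88% of all usable loci), 12 of them at 4-fold, and 4 were leaf-low (2.88%). The 13 include the chromosome 4 run described above, except AT4G22510, so the share in part counts that run again. Over class members of at least 1 FPKM, the median difference from the other organs' mean was -1.15 (log2), beside -0.42 over all such loci. Classes without any leaf-high call included the 104 histone loci and the 34 expansin loci. For classes of this size, 0 is close to the 1.88% of all usable loci. Of the expansin loci 3 were leaf-low (8.82%, beside 2.31% of all usable loci).

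Among stomatal genes, the guard cell channels ALMT12 and SLAC1 passed 2-fold. The 3 successive lineage factors did not, though their partner SCRM2 did. Of 25 stomatal genes, 4 were leaf-high (16.0%, beside 2.73% of all loci of at least 1 FPKM). The count was 9 and 7 after the rescalings and 15 without flowers. With a pseudocount of 5 FPKM only ALMT12 was leaf-high, since SLAC1, HT1 and SCRM2 lost the call. The malate-activated anion channel gene ALMT12 had 14.3 FPKM in leaves, 1.91 in roots, 2.19 in flowers and 4.22 in siliques. The guard cell anion channel gene SLAC1 had 5.23 FPKM in leaves, 0.107 in roots, 1.84 in flowers and 1.87 in siliques. The kinase gene HT1, which acts in the guard cell response to carbon dioxide, had 3.88 FPKM in leaves, 0.674 in roots, 1.16 in flowers and 1.28 in siliques. SCRM2, a bHLH partner of the stomatal lineage factors, had 61.6 FPKM in leaves, 1.28 in roots, 29.1 in flowers and 18.4 in siliques. SPCH, MUTE and FAMA, those factors, stood at 7.26, 2.30 and 14.2 FPKM in leaves and 4.73, 2.08 and 9.56 in flowers. Of 18 trichome genes only GL1 was leaf-high (5.56%), at 1.60, 0, 0.162 and 0.00810 FPKM in leaves, roots, flowers and siliques. SIM, an inhibitor of cyclin-dependent kinases, and EGL3 were leaf-low (11.1%). For a list of this size, these counts are near the 2.73% and 3.36% of all loci of at least 1 FPKM. SIM had 6.77 FPKM in leaves, 53.1 in roots, 22.4 in flowers and 37.8 in siliques. EGL3 had 1.76 FPKM in leaves, 4.87 in roots, 9.35 in flowers and 8.42 in siliques, a call lost under both rescalings.

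Leaf polarity and growth genes gave 1 leaf-high and 1 leaf-low member of 30 (3.33% each). These shares are close to the 2.73% and 3.36% of all loci of at least 1 FPKM. The YABBY gene YAB5, of a family active on the lower leaf side, had 21.2 FPKM in leaves, 0.0403 in roots, 5.92 in flowers and 0.733 in siliques, and its relatives FIL and YAB3 stood at 54.2 and 35.7 FPKM in leaves and 37.6 and 22.2 in flowers. The adaxial factor gene REV had 11.3 FPKM in leaves, 24.7 in roots, 31.9 in flowers and 27.9 in siliques, a leaf-low call lost under both rescalings. Cell division genes gave 0 calls of 30 in either direction, and the shoot meristem list gave 0 of 10. For lists of these sizes, 0 is close to those same shares of all loci. Leaves were lowest in 13 of the 30 division genes and highest in none, beside 45.8% and 13.7% of all loci of at least 1 FPKM. The median difference of the division genes from the mean of the other organs was -0.33 (log2), beside -0.42 over all such loci. Among the 13 were CDT1A and CDKB1;1. CDT1A had 5.35, 13.2, 15.2 and 9.76 FPKM in leaves, roots, flowers and siliques, and CDKB1;1 had 6.89, 16.8, 17.2 and 11.9 FPKM.

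The clock, cold and dark-inducible lists each held leaf-high members. Of 14 morning clock genes 1 was leaf-high and 1 leaf-low, and of 15 evening clock genes 1 and 1. For lists of these sizes, such counts are close to the 2.73% and 3.36% of all loci of at least 1 FPKM. CHE, a TCP factor that represses CCA1, had 50.9 FPKM in leaves, 6.58 in roots, 15.1 in flowers and 12.1 in siliques (margin 1.69). PRR7 had 115 FPKM in leaves, 48.3 in roots, 34.2 in flowers and 47.0 in siliques (1.24). The median margin of all leaf-high loci was 1.40. Of 12 cold response genes 3 were leaf-high and 2 leaf-low. RVE2 was leaf-low with 4.41 FPKM in leaves, 16.6 in roots, 12.7 in flowers and 14.5 in siliques, a call lost under the median-of-ratios rescaling. BOA was leaf-low with 0.540 FPKM in leaves, 4.81 in roots, 6.35 in flowers and 3.34 in siliques. Without a recorded harvest hour, the time of day behind these values is not known. The cold regulators CBF1, CBF2 and CBF3, a tandem run on chromosome 4, were all leaf-high. With a pseudocount of 5 FPKM only CBF2 of the 3 was. CBF2 had 19.2 FPKM in leaves, 3.38 in roots, 0.904 in flowers and 0.130 in siliques. CBF1 had 6.71 FPKM in leaves, 1.55 in roots, 0.257 in flowers and 0.214 in siliques. CBF3 had 5.003 FPKM in leaves, 0.445 in roots, 1.21 in flowers and 1.05 in siliques. Roots came second for CBF2 and CBF1, and flowers for CBF3. Of their known targets, COR15A stood at 28.5, 0.0893, 188 and 79.9 FPKM in leaves, roots, flowers and siliques and KIN1 was leaf-low at 2.55, 23.8, 176 and 10.3 FPKM. ERD10 was leaf-low too, at 55.9, 142, 178 and 165 FPKM, a call lost under the median-of-ratios rescaling.

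Of 8 dark-inducible genes, a list added after values were seen, 3 were leaf-high. SEN1, a senescence and dark marker, had 317 FPKM in leaves, 50.6 in roots, 9.62 in flowers and 7.56 in siliques (margin 2.62). The asparagine synthase gene ASN1 had 259 FPKM in leaves, 2.02 in roots, 111 in flowers and 23.3 in siliques. The oxygenase gene DIN11 had 6.02 FPKM in leaves, 0.468 in roots, 0 in flowers and 0.00925 in siliques. DIN10 and the branched-chain amino acid degradation genes of the list did not reach 2-fold.

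The 12 protein-coding loci with the largest leaf-low margins came from many annotated families. The arabinogalactan protein gene AGP24 had 2.29 FPKM in leaves, 197 in roots, 64.2 in flowers and 79.2 in siliques (margin 4.31). The dirigent-type gene DIR6 had 2.52 FPKM in leaves, 85.3 in roots, 44.3 in flowers and 133 in siliques. The lipid-transfer gene AT1G48750 had 3.86 FPKM in leaves, 59.2 in roots, 64.5 in flowers and 49.6 in siliques. KCS2, a very-long-chain fatty acid elongase component, had 1.04 FPKM in leaves, 19.3 in roots, 56.8 in flowers and 76.5 in siliques. Also among the 12 were AT1G60740 (thioredoxin superfamily), AT2G17280 (phosphoglycerate mutase family), AT5G02580 (annotated as an argininosuccinate lyase), AT2G03200 (aspartyl protease family), AT3G25290 (auxin-responsive family) and AT1G77520 (O-methyltransferase family), with margins from 3.21 to 3.83 and leaf levels from 0.103 to 1.48 FPKM. G6PD6 is listed at 0 in leaves but has a second row in the same interval at 11.2 FPKM, also leaf-low, so the size of its margin is uncertain.

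PGDH (AT1G17745), which opens the plastid phosphorylated pathway of serine synthesis, had 5.67 FPKM in leaves, 63.6 in roots, 66.4 in flowers and 136 in siliques (margin 3.28). Its interval was separate from those of the other organs, as were those of AT3G25290 and of the glyoxalase gene GLX1, which had 132 FPKM in leaves, 386 in roots, 465 in flowers and 604 in siliques. The sucrose synthase gene SUS1, which splits sucrose in sink tissue, had 6.30 FPKM in leaves, 101 in roots, 94.1 in flowers and 52.4 in siliques and was the only leaf-low member among 6 sucrose synthase genes, a list added after values were seen. In the oxidative pentose phosphate pathway, also added, G6PD6 and PGD2 were leaf-low among 9; PGD2 had 41.2 FPKM in leaves, 130.0 in roots, 95.2 in flowers and 121 in siliques, a call lost under both rescalings.

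Jasmonate genes held members of both kinds, also within 1 family. Of 18 compared, 2 were leaf-high (11.1%) and 4 leaf-low (22.2%), beside 2.73% and 3.36% of all loci of at least 1 FPKM. The median difference from the mean of the other organs was -1.14 (log2), beside -0.42 over all such loci. AOC2, an allene oxide cyclase, had 40.9 FPKM in leaves, 0.705 in roots, 2.72 in flowers and 0.475 in siliques. Its tandem neighbour AOC3 went the other way with 0.525 FPKM in leaves, 34.3 in roots, 7.15 in flowers and 14.5 in siliques. AOC2 and AOC3 share an identical stretch of 50 bases, in transcripts of 1300 and 1660 bases. AOS, which acts 1 step before, had 47.6 FPKM in leaves, 16.6 in roots, 11.8 in flowers and 8.97 in siliques. VSP1, a vegetative storage protein induced by jasmonate, had 0.854 FPKM in leaves, 6.76 in roots, 2834 in flowers and 3428 in siliques. The repressor gene JAZ1 had 10.1 FPKM in leaves, 78.2 in roots, 53.2 in flowers and 44.7 in siliques. The fourth leaf-low member was AOC4 (margin 1.13). LOX2 had 68.2 FPKM in leaves but 0.0299 in roots and 737 in siliques, so it fell under neither rule. After rescaling 3 members were leaf-low under each factor, and without roots 10 were.

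Flavonoid enzymes were among the leaf-low genes, and a repressor of the pathway was leaf-high. Of 22 compared, 4 were leaf-low (18.2%) and 1 leaf-high (4.55%), beside 2.31% and 1.88% of all usable loci. The median difference was -1.52. MYBL2, a repressor of anthocyanin synthesis, had 262 FPKM in leaves, 16.8 in roots, 30.7 in flowers and 62.9 in siliques (margin 2.04); a second row of MYBL2 was low in all organs and not leaf-high. Chalcone synthase, the entry enzyme encoded by TT4, had 3.33 FPKM in leaves, 26.4 in roots, 339.6 in flowers and 847 in siliques. Flavanone 3-hydroxylase (F3H) had 2.33 FPKM in leaves, 9.53 in roots, 63.8 in flowers and 127 in siliques. The flavonol regulator MYB12 had 0.0653 FPKM in leaves, 2.74 in roots, 6.0 in flowers and 5.25 in siliques. FLS1, flavonol synthase, was the fourth (margin 1.32). Later enzymes such as DFR and LDOX were low in leaves, at 0.640 and 0.829 FPKM, but lower still in roots. After rescaling 3 and 4 of the 22 were leaf-low and without roots 12 were, but with a pseudocount of 5 FPKM 1 was, and F3H and MYB12 lost the call.

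Cuticle and wax genes gave 2 leaf-low (6.90%) and 0 leaf-high members of 29. For a list of this size, these counts are close to the 3.36% and 2.73% of all loci of at least 1 FPKM. The list's median difference from the mean of the other organs was -0.19 (log2), beside -0.42 over all such loci. CER4, a fatty acyl reductase that makes wax alcohols, had 0.0886 FPKM in leaves, 6.53 in roots, 59.4 in flowers and 112 in siliques. GPAT6, a cutin synthesis acyltransferase, had 4.85 FPKM in leaves, 12.4 in roots, 112 in flowers and 13.9 in siliques, a call lost under both rescalings. The wax alkane gene CER1 stood at 27.4, 0.580, 455 and 519 FPKM in leaves, roots, flowers and siliques, and MAH1 at 0.0202, 0, 189.8 and 289 FPKM. Without roots 13 of the 29 were leaf-low.

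Chaperones of the endoplasmic reticulum, a list added after values were seen, were mostly leaf-low. Of 13 compared, 10 were leaf-low, beside 2.31% of all usable loci, and leaves were lowest in 12. The lumenal HSP70 gene BIP2 had 33.6 FPKM in leaves, 177 in roots, 145 in flowers and 177 in siliques. Its paralogue BIP1 had 52.0 FPKM in leaves, 170.3 in roots, 174 in flowers and 223 in siliques. They share an identical stretch of 323 bases, so reads may have been split between them. Calreticulin 1b (CRT1b) had 49.1 FPKM in leaves, 159 in roots, 176 in flowers and 162 in siliques. SHD, the lumenal HSP90, had 92.8 FPKM in leaves, 214 in roots, 254 in flowers and 266 in siliques. The calls fell to 5 and 6 of 13 after the rescalings. Of 11 heat shock genes of other compartments, only 6 reached 1 FPKM in some organ. Calls were 0 of 11, close to the 2.31% of all usable loci for a list of this size, so they give no contrast with the ER genes. HSP90.1 stood at 2.02, 4.38, 4.64 and 4.41 FPKM in leaves, roots, flowers and siliques and HSP101 at 2.11, 3.33, 4.32 and 5.29 FPKM.

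**Figure D5:**
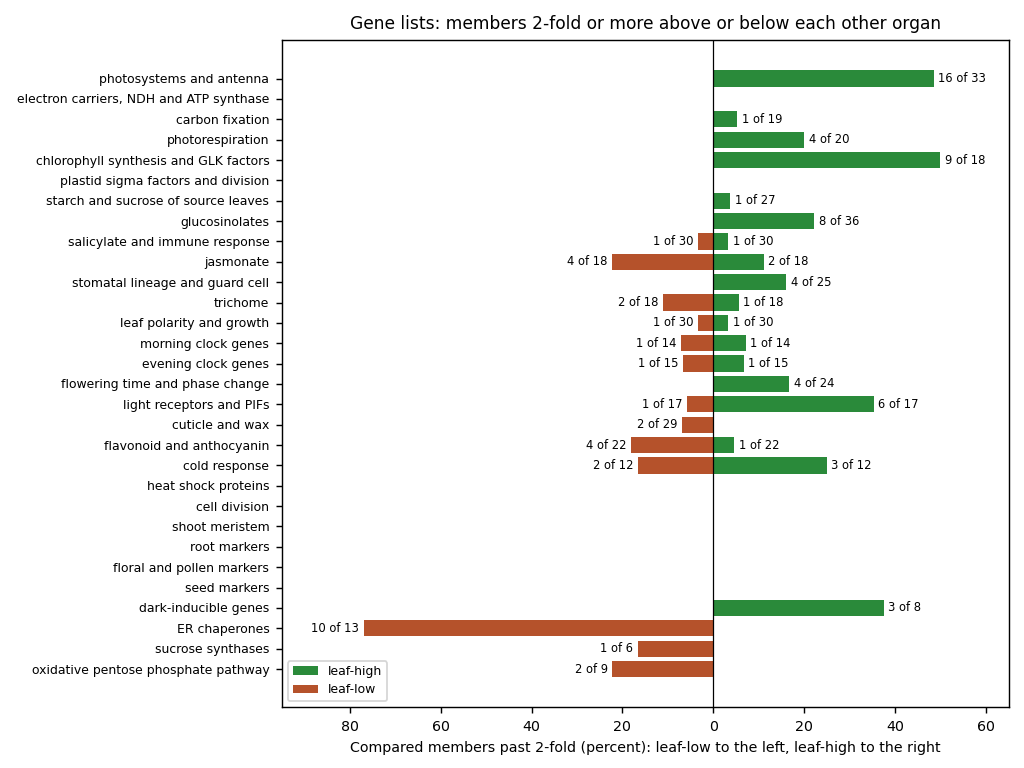
Share of compared members past 2-fold in each gene list, in percent, leaf-high to the right and leaf-low to the left, with counts. Photosystem (16 of 33) and chlorophyll genes (9 of 18) lead on the right and ER chaperones (10 of 13) on the left.

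Beside the miRNA loci, 2 noncoding loci had leaf-high margins above 1.7. AT3G22121, an unclassified RNA, had 168 FPKM in leaves, 2.01 in roots, 36.6 in flowers and 26.6 in siliques. AT2G06002 had 3.65 FPKM in leaves, 0 in roots, 0.229 in flowers and 0.372 in siliques. AT3G22121 shares its interval with the leaf-high gene CWLP on the opposite strand, which stood at 611 FPKM in leaves, so their reads cannot be told apart without strand. Leaf-low noncoding loci were AT3G51238 (1.50, 5.93, 40.7 and 75.1 FPKM in leaves, roots, flowers and siliques), ZPR4 (2.74, 7.98, 11.4 and 12.9 FPKM) and AT4G22233 (1.12, 4.06, 9.04 and 3.33 FPKM). AT3G51238 shares its interval with the flavonoid gene F3H, so reads of both cannot be told apart without strand. The call for AT4G22233 was lost under both rescalings and that for ZPR4 under the median of ratios.

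Short proteins and single exons were more frequent in both 4-fold sets than in expressed genes as a whole. Proteins under 150 residues were 17.4% of 568 leaf-high genes, 24.2% at 4-fold and 10.9% of 746 leaf-low genes (18.5% at 4-fold), beside 12.3% of all 21288 genes of at least 1 FPKM. Genes of 1 exon were 23.1% of leaf-high (28.2% at 4-fold), 17.7% of leaf-low (28.4% at 4-fold) and 17.6% of all genes. Overlap with another row was found for 20.6% of leaf-high and 22.6% of leaf-low loci, close to the 19.6% of all usable loci.

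Promoter windows of leaf-high genes held the I-box more often than other windows. Windows ran from 250 bases before to 50 after the annotated start (RefSeq, TAIR10.1), and 5 letter strings were searched on both strands, none of which contains another. The I-box, GATAAG, known from promoters of light-regulated genes, was in 154 of 567 leaf-high windows (27.2%), 84 of 746 leaf-low windows (11.3%) and 14.7% of the 21287 windows of loci at 1 FPKM or more. In genes high in roots, flowers or siliques by the same rule the shares were 14.9%, 12.6% and 15.8%. The share was 22.1% in the 4-fold leaf-high windows and 26.4% in leaf-high windows outside the plastid gene lists. Over all leaf-high windows after rescaling it was 26.1% and 25.8%. The evening element, AAAATATCT, was in 5.47% of leaf-high, 3.08% of leaf-low and 3.09% of all windows. Site II, TGGGCC, was in 9.17%, 11.3% and 17.1%, and the telo-box, AAACCCTA, in 2.82%, 3.49% and 5.32%. The G-box, CACGTG, was in 9.52%, 13.0% and 8.40%.

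The 250 bases before the start are shown for HBI1, ASN1 and LHCB6, a growth control, a dark-inducible and an antenna gene described above. They were picked as examples that hold a match, and most leaf-high windows hold none. The I-box also occurs before genes that are not leaf-high, such as the leaf-low SIM and the uncalled CDT1A. The I-box or its reverse complement, CTTATC, is in capitals, and all 3 genes are on the minus strand. The windows are chr2:7954786-7955035 for HBI1, chr3:17441432-17441681 for ASN1 and chr1:5447881-5448130 for LHCB6.
HBI1: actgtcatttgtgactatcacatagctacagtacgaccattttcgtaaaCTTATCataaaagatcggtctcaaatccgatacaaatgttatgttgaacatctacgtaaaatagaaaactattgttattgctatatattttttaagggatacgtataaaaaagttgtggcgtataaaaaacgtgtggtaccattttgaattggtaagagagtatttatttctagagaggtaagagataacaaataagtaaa
ASN1: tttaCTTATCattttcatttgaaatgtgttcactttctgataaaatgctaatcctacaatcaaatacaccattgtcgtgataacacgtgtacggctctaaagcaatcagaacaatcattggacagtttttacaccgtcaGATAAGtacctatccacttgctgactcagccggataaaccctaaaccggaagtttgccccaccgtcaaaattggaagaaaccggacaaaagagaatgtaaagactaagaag
LHCB6: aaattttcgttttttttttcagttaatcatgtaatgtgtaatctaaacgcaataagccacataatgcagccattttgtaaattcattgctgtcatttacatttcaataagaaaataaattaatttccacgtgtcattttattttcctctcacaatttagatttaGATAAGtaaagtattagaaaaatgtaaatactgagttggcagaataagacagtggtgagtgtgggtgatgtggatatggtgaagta
HBI1 and LHCB6 hold 1 match each and ASN1 holds 2, in opposite orientations.

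At the 2-fold limit the calls separate loci of nearly equal margin. Just inside the leaf-high limit, AT5G46710 had 20.3, 9.46, 7.65 and 9.64 FPKM in leaves, roots, flowers and siliques, AT5G14910 215, 11.0, 102 and 107 FPKM and AT5G13950 33.3, 16.1, 15.2 and 15.8 FPKM. Just outside lay RPS9 with 215, 15.0, 91.8 and 107 FPKM, AT1G63750 with 4.91, 1.96, 0.500 and 0.234 FPKM and BLH2 with 14.3, 0.770, 6.23 and 6.66 FPKM. On the leaf-low side TPR12 (1.38, 24.3, 3.77 and 4.04 FPKM), MSBP1 (68.2, 157, 137 and 145 FPKM) and AT4G01610 (45.2, 206, 91.5 and 93.9 FPKM) were just inside. AT2G05910 (0.779, 5.09, 2.55 and 2.60 FPKM), AT2G18240 (8.16, 17.3, 20.1 and 19.6 FPKM) and AT1G69790 (0.385, 5.32, 1.77 and 4.68 FPKM) were just outside.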

How the data were processed

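RNA was measured in 4 libraries, 1 per organ. The submitters' processing notes name TopHat, Cufflinks and the build TAIR10. Versions, settings and read totals were not given in the sources used, so the depth behind each value is unknown. The deposited table holds FPKM per locus with the authors' interval and a status. Loci with a status other than OK in any organ (217) were left out, because the status for too much data lists a locus at 0. The kit does not mark strand, and overlapping loci share reads.

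Margins were computed on log2(FPKM + 1), which understates differences of low loci, with Python 3.11.15, pandas 2.3.3 and numpy 2.4.6; figures used matplotlib 3.10.9. The calculation was tested on simulated data. Sequences came from RefSeq's TAIR10.1. Having 1 library per organ, no test was run. The alternatives were pseudocounts, rescalings, filters, folds, intervals and leaving out an organ.

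Members and gene lists were chosen with earlier results of these data known. The rule for named loci took the 12 largest protein-coding margins each way, up to 4 noncoding loci, the 6 largest with separate intervals, up to 4 leaf-high and 3 leaf-low members per list (or 2 where it had neither), unusable members, 3 loci on each side of the limits and the 3 highest leaf values. Other loci named, 4 of the lists and some product classes were chosen after their values were seen.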

Additional observations from a re-analysis of the deposited data

How the results depend on the processing

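The counts of leaf-high and leaf-low loci, 642 and 788, moved with most settings. A pseudocount of 0.1 FPKM gave 817 and 1698, and one of 5 FPKM gave 404 and 271. Median-of-ratios rescaling gave 1208 and 385, and upper-quartile rescaling 980 and 507. Without roots the counts were 1227 and 2198, without flowers 930 and 1247, and without siliques 1032 and 1428. At 4-fold they were 164 and 86, with separate intervals 11 and 3, and with both 11 and 2. A minimum of 5 FPKM in some organ gave 565 and 746. Loci with 1 gene code gave 604 and 765, and loci with neither an overlap nor a second row, a setting chosen after seeing the data, 467 and 585. The cause of these shifts was not tested. Of 103 named loci past 2-fold, 83 passed with a pseudocount of 5 FPKM and 94 and 97 after the rescalings. No direction turned under the rescalings. All 103 passed under the other pseudocount and without each organ. A smaller pseudocount or fewer organs can only keep or widen a margin past 2-fold, so those settings could not have lost a call. Lost with a pseudocount of 5 FPKM were the leaf-high AT2G06002, CBF1, CBF3, HT1, MIR156a, GL1, SLAC1 and SCRM2, and the leaf-low AT3G51238, AT4G22233, BOA, EDS5, EGL3, ELIP1, F3H, GPAT6, MYB12, REV, RVE2 and ZPR4. No paired analysis was possible because each organ had 1 library. Without replicates, no difference can be set against the spread between plants, and with read totals unknown no counting error can be given.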
